A study of Homo sapiens with 8 samples.

Results

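YTHDF2 binding sites in the first kilobase of genes were taken as the distinct listed positions that lay in exactly 1 protein-coding gene spanning 10 kb or more, on that gene's strand, and less than 1000 nt inside it from its 5′ end. There were 981 such sites in 611 genes, out of 37613 distinct positions in all and out of 29993 positions assigned in the same way to genes of that span. The positions came from iCLIP2 of wild-type HEK293T, a cell line derived from human embryonic kidney, where ultraviolet light joins a protein to the RNA it touches and reverse transcription then stops at the joined nucleotide. Of the 8 libraries, 4 were from cells given 20 µM STM2457, which inhibits the m6A methyltransferase METTL3, with 0.2% DMSO, and 4 were from cells given 0.2% DMSO alone, each for 12 h, and nothing in the labels says that replicates are separate cultures. The question behind the treatment was how far binding of YTHDF2 needs m6A. The deposited list holds 1 score per row and 0 columns with values of a single library, so the treatments were not compared, the spread between replicates and the depth behind a site are unknown, and every difference below is a description of sites or genes with no test, since sites and genes are not replicates.

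YTHDF2 is a cytoplasmic reader of N6-methyladenosine (m6A) that recruits the CCR4-NOT deadenylase to the mRNAs it binds. The mark is placed on nascent transcripts by METTL3 and METTL14 within a short consensus known as DRACH, at its central A. In mRNA it is known to be most frequent in long internal exons and around stop codons, and less frequent toward the 5′ end. The first kilobase of a gene begins with its first exon and, in many long genes, reaches into the first intron. Exon boundaries were not used here, so a site at a given distance inside the gene may lie in untranslated, coding or intronic sequence.

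Every first-kilobase site whose sequence could be read was an A followed by C. Sequence was available for 72 sites in 64 genes, where a reference promoter window (RefSeq, GRCh38.p14) covered the 21 nt centred on the site. The listed base was A in 72 of 72 sites, the next base was C in 72 and the base before it was G in 46 (63.9%) or A in 26. The base 2 positions before the site was G in 35, A in 22 and T in 15, and never C. The first 4 letters of the consensus were thus matched by 72 of 72 sites, against 1.59% of the 291390 windows centred 10 to 39 nt inside 9713 genes spanning 10 kb or more. The last of the 5 letters was G, which the consensus does not allow, at 15 sites (20.8%), so 57 of 72 (79.2%) matched all 5. Among the 139 other assigned sites with sequence, 139 matched the first 4 letters and 14 (10.1%) had this G. No source used here says whether the authors kept only positions at such motifs, and such a step would give these values too. The contrast with the 1.59% would then be fixed in advance, and it is not read as a preference of the protein. Only 15 of the 72 sites lay 10 to 39 nt from a listed start, where the windows were taken.

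The 12 highest-scoring of these sites are printed 5′ to 3′ as DNA, with the listed A in the middle of the 5 capitals, to show what kind of position the list holds.
MRPS21 (chr1:150294019-150294039, plus strand): cccttttgGAACTatgtgtgg
GTF3C4 (chr9:132670294-132670314, plus strand): cactttagGAACTaaagcctg
ZNF503 (chr10:75401313-75401333, minus strand): ccctgcctGGACCagcgcgct
SLMAP (chr3:57757049-57757069, plus strand): ggcgatgcAGACTgtcccgcc
RASA1 (chr5:87268696-87268716, plus strand): ggggagctGGACTgacagggg
PIGA (chrX:15335515-15335535, minus strand): ggaggtccGGACActggcggc
PPM1E (chr17:58756143-58756163, plus strand): ccgaacctGAACTggtagaag
RASA1 (chr5:87268768-87268788, plus strand): ctgttgctGGACCtagtggag
SMC4 (chr3:160400389-160400409, plus strand): ccggacacGAACTcgtttctc
NUFIP1 (chr13:44989399-44989419, minus strand): tgatttcgAGACTcctatcgg
ATP5PO (chr21:33915775-33915795, minus strand): ctcgggttTGACCtacagccg
TIMMDC1 (chr3:119498572-119498592, plus strand): gaggccggGGACTgaaggtgt
In the mitochondrial ribosomal protein gene MRPS21, the site scored 44.3 and read GAACT, and the same 5 letters stood at the sites of GTF3C4 (score 25.9), a subunit of RNA polymerase III transcription factor TFIIIC, and of PPM1E (14.6), a protein phosphatase. The RAS GTPase-activating protein gene RASA1 had its sites 72 nt apart, with GGACT at a score of 23 and GGACC at 14.3.

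The 6 sites nearest to a 5′ end that were not among these 12 are printed in the same way, to show listed positions in the first nucleotides of the gene.
NSA2 (chr5:74767239-74767259, plus strand): ttaaagggTGACTctttcctg
TOP2A (chr17:40417885-40417905, minus strand): agctctccTAACCgacgcgcg
ATP5F1C (chr10:7788170-7788190, plus strand): ggcctgccTGACCgaccttca
PPT1 (chr1:40097239-40097259, minus strand): cggtcatgTGACAcagcgaag
COX16 (chr14:70359669-70359689, minus strand): tgagttaaGGACGtactcgtc
PIAS1 (chr15:68054310-68054330, plus strand): gcgctgacAGACGcaagatgg
The site of NSA2, a ribosome biogenesis factor gene, was the first nucleotide of the annotated gene (distance 0 nt, score 4.99), and that of TOP2A, the gene of DNA topoisomerase II alpha, was the next one (distance 1 nt, score 0.276). The sites of COX16, a cytochrome oxidase assembly factor gene, and of PIAS1, a SUMO ligase gene, were among the 15 with G as the last of the 5 letters.

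Words of the consensus were far more numerous near the starts than sites were. The first 50 nt of 4383 genes with a site anywhere held 3014 words matching its first 4 letters, and 31 of these (1.03%) were listed. By word, 10 of 924 GGAC were listed (1.08%), 3 of 597 AGAC (0.503%) and 5 of 171 TAAC (2.92%). At the 72 sites, GGAC was the most frequent word with 25 (34.7%), beside 31.7% of all such words 10 to 39 nt inside genes and 37.4% of the 139 other sites. GAAC was at 10 sites (13.9%), beside 23.7% of the other sites. Consensus words cannot lie closer than 4 nt to each other, and 4 nt was also the smallest distance between neighbouring first-kilobase sites, found 3 times.

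Sites were most frequent from 100 to 199 nt inside the gene. That interval held 145 sites, the first 100 nt held 92, and the counts per 100 nt were 124, 105 and 81 in the next 3 intervals and 77 to 93 in each of the other 5. The median distance was 429 nt with quartiles of 208 and 709, and 547 sites (55.8%, exact binomial 95% interval 52.6 to 58.9, for counting error only) lay in the first 500 nt. Within the first 100 nt, 42 sites lay in the first 50 nt and 10 in the first 10 nt. The second kilobase held 546 sites, 44 to 72 per 100 nt.

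**Figure D1:**
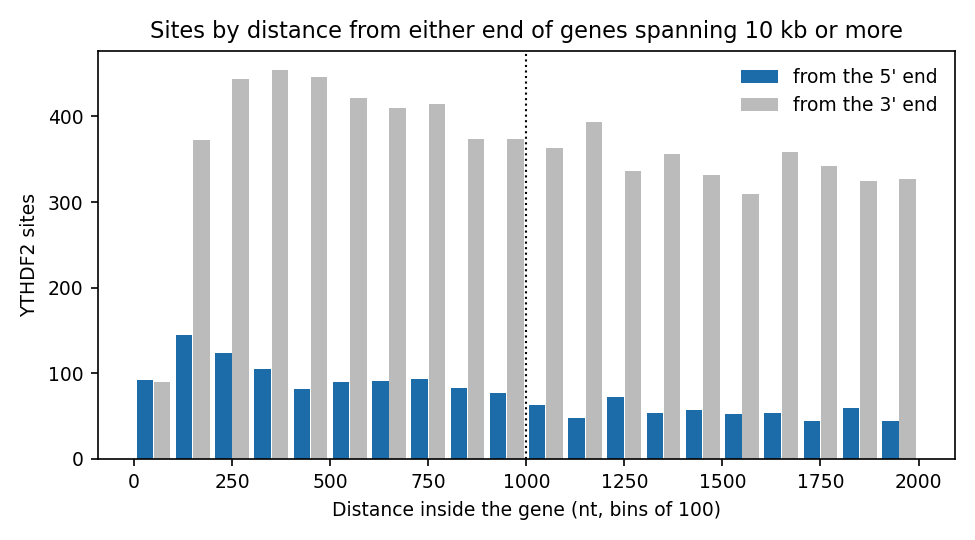
Number of YTHDF2 sites (vertical axis) per 100 nt of distance inside the gene (horizontal axis), counted from the 5′ end (blue) and from the 3′ end (grey) in 6009 genes spanning 10 kb or more with a site. From the 5′ end the counts were highest at 145 sites from 100 to 199 nt, and from the 3′ end at 454 in the interval that starts at 300 nt. The dotted line marks 1000 nt.

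The first kilobase held 3.27% of the assigned sites (95% interval 3.07 to 3.48), the second kilobase 1.82% and the last kilobase 12.7%. Per 100 kb of gene, over the genes with a site, there were 16.3 sites in the first kilobase, 9.09 in the second, 5.75 in the 3 after that, 5.31 further in and 63.2 in the last. Introns were not removed from any of these lengths. The sparse values further in and the dense ends can therefore not be read as densities in mature mRNA. From either end the terminal 100 nt were alike in number, with 92 sites at the 5′ end and 90 at the 3′ end.

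A first-kilobase site was found in 611 of the 6009 genes with any site (10.2%, 95% interval 9.42 to 11.0), and a last-kilobase site in 1844 (30.7%). Of the 611 genes, 164 (26.8%, 95% interval 23.4 to 30.5) also had a last-kilobase site and 88 a site in the second kilobase. The 611 genes were shorter than the rest and had more sites. Their median span was 34.8 kb against 45.4 kb in genes with sites but none in the first kilobase, and they had a median of 5 sites against 3, or 3 when their first-kilobase sites were not counted. A gene with more sites has more chances to hold one in any given window, so the difference in number is partly built into the choice of genes.

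The share of sites in the first kilobase fell with gene span up to 300 kb and was higher again above it. It was 5.41% in genes of 10 to 20 kb (282 sites), 3.62% from 20 to 50 kb, 2.56% from 50 to 100 kb, 1.88% from 100 to 300 kb (133 of 7082 sites, 95% interval 1.57 to 2.22) and 3.39% above 300 kb (42 of 1238, interval 2.46 to 4.56). The first kilobase is a smaller part of a longer gene, and how much of the fall follows from this was not tested. In the 218 genes above 300 kb with a site, the last kilobase held 41 sites and the first 42, a ratio of 0.976. The ratio was 3.54 to 4.30 in the other span classes. These 42 sites lay in 19 genes. PCDH7, a protocadherin gene of 426 kb, and CDC42BPA, which encodes the kinase MRCK alpha and spans 329 kb, had 5 each and 0 in the last kilobase. The transcription factor gene MAF and the formin gene FMN2 had 4 each.

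Most genes had 1 first-kilobase site. Where a position stood on 2 rows of the list, the higher score is given unless the other is named. There were 419 such genes, 105 with 2, 47 with 3, 17 with 4 and 23 with 5 or more, which held 143 of the 981 sites. Neighbouring sites within a gene's first kilobase lay a median of 96.5 nt apart, beside 93 nt in the second and 99 nt in the last kilobase. Of these gaps, 31.6% were 50 nt or less, beside 25.6% and 27.2%. Runs of sites with gaps of 50 nt or less held 214 sites (21.8%) in 97 runs, beside 25.3% of sites in the second and 25.8% in the last kilobase, and the longest had 5 sites, in FBRS.

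FBRS, MAN1A2 and PURA had the most first-kilobase sites, with 9 each. FBRS encodes fibrosin, a subunit of a variant Polycomb repressive complex, and 9 of its 10 sites lay within 474 nt on chromosome 16 from 30658590 to 30659063 (GRCh38, plus strand). High and low scores stood side by side along the gene. From 159 nt inward they were 0.915, 21, 0.293, 19.0, 6.22, 0.153, 25.8, 0.882 and 0.292. The rows of the list were grouped into a shorter and a longer part, as described below, and the 0.915 was only in the shorter part. The 19.0 was in both parts and had 1.44 on its other row. The sites at 542 and 549 nt, only 7 nt apart, differed from 6.22 to 0.153, and those at 591 and 598 nt from 25.8 to 0.882, so neighbouring positions of this gene were scored very differently.

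MAN1A2 encodes a Golgi mannosidase that trims N-linked glycans and spans 161 kb, yet 9 of its 15 sites lay within its first 830 nt, on chromosome 1 from 117367496 to 117368279 (plus strand). Its sites fell into a group of 4 from 47 to 163 nt and a group of 5 from 519 to 830 nt. In the first group the scores were 9.74, 0.546, 3.08 and 22.5, and in the second 7.43, 9.53, 1.87, 6.16 and 9.81. The median was 7.43 inside the first kilobase and 6.79 over its 6 other sites, of which the highest reached 51.0.

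PURA encodes a protein that binds purine-rich single strands of DNA and RNA, and had 9 of its 11 sites in the first kilobase, on chromosome 5 from 140114381 to 140114985 (plus strand). Its scores from 272 nt inward were 23.2, 7.40, 4.25, 1.16, 1.84, 2.53, 19.8, 24.0 and 9.70. The highest values stood near both ends of this stretch, and the lowest in its middle. The 23.2 was listed only in the shorter part of the list, and the 24.0 had 12.9 on its other row.

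MORC2 and SLC1A5 had 8 sites each. MORC2 encodes an ATPase that acts with the HUSH silencing complex, and its scores were higher farther from the 5′ end. They were 0.248 and 3.48 at 108 and 254 nt, 3.10 and 15.2 at 548 and 577 nt, and 34.4, 21.7, 27.3 and 47.8 from 698 to 804 nt. Over its 3 other sites the highest was 7.43. The position at 698 nt was on 2 rows of the list and had a score of 0.0632 on the other row.

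SLC1A5, the gene of the glutamine transporter ASCT2, had 8 of its 9 sites in the first kilobase, on chromosome 19 from 46787759 to 46788268 (minus strand). It also held the pair of first-kilobase sites with the highest scores of all 981. From 326 nt inward the scores were 65.4, 50.6, 226, 27.2, 75.5, 3.12, 17.1 and 229. The 226 at 486 nt was on 1 row, whereas the 229 at 835 nt was on 2 rows and had 13.8 on the other.

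LEMD3 and LIMD1 had 7 sites each, and 6 genes had 6 each, which were ALKBH5, HERPUD2, KLHL42, LRFN3, PDE3B and RNF168. LEMD3 encodes an inner nuclear membrane protein that restrains SMAD signalling, and 1 of its sites, at 878 nt with a score of 44.0, stood above the other 6, which scored 0.214 to 8.08. LIMD1 encodes a LIM domain protein of P-bodies, and 6 of its sites from 178 to 661 nt scored 11.4 to 33.5, while that at 964 nt scored 0.213. In KLHL42, an adaptor gene of CUL3 ubiquitin ligases, the scores ranged from 0.827 to 32.4. HERPUD2, related to the ER stress gene HERPUD1, had no site outside its first kilobase, and its 6 sites lay within 193 nt, from 704 to 896 nt, with scores of 14.4, 12.6, 21.3, 35.0, 1.84 and 4.18. PDE3B, a cyclic AMP phosphodiesterase gene, scored 0.223, 4.13, 2.97, 13, 2.93 and 4.69 from 396 to 765 nt, while the median over its 3 other sites was 30.2.

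**Figure D2:**
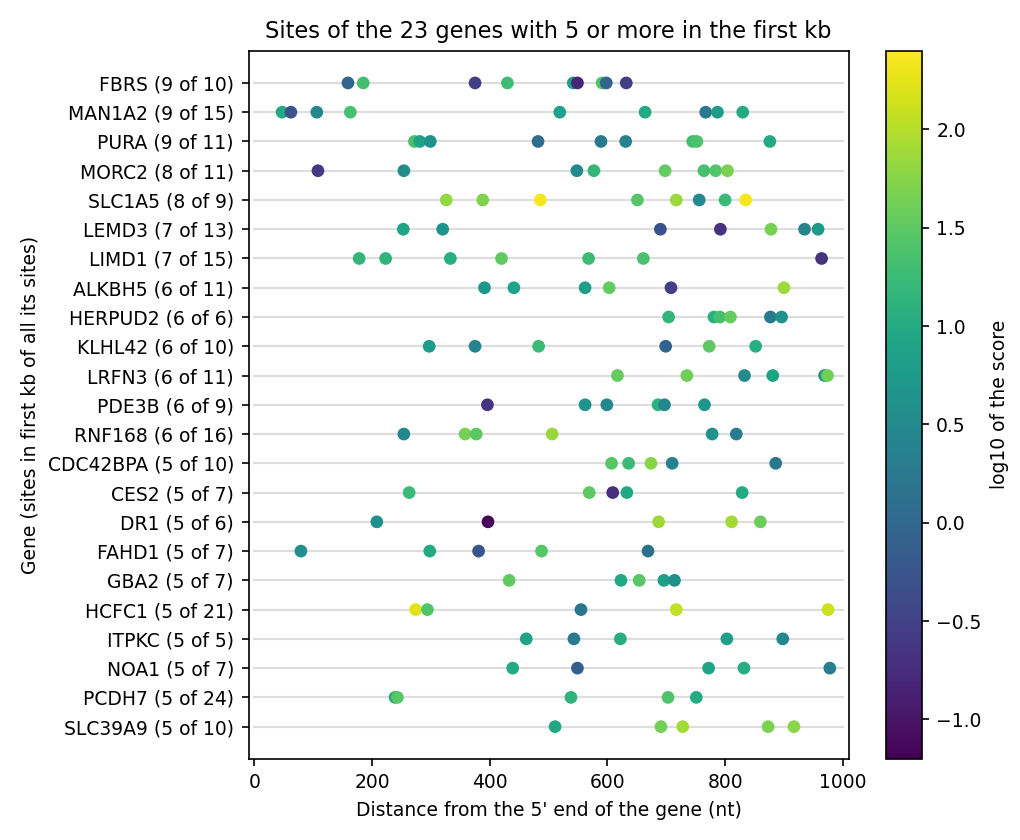
Positions of first-kilobase sites (points) in the 23 genes with 5 or more, by distance from the 5′ end in nt (horizontal axis), coloured by the log10 of the score. Labels give the number of first-kilobase sites of all sites of the gene. The sites of HERPUD2 lie from 704 to 896 nt, and those of MAN1A2 begin at 47 nt.

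In 106 genes every site lay in the first kilobase, 79 of them with 1 site, 15 with 2 and 12 with 3 or more. By comparison, 595 genes had all of their sites in the last kilobase. After HERPUD2, the inositol trisphosphate kinase gene ITPKC followed with 5, from 462 to 898 nt with scores of 7.75, 1.92, 11.1, 6.64 and 2.97. SKP2, the F-box protein that directs p27 to degradation, and C21orf58 had 4 each. The SKP2 sites lay within 149 nt, from 736 to 884 nt, and scored 0.979, 11.1, 3.98 and 4.81. Among those with 3 were ACBD6, CCDC90B, CENPS, GPN2, MINDY2 and SCFD2, and SCFD2 spans 493 kb.

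Among the 164 genes with sites at both ends were some with several at each. UPF1, the helicase of nonsense-mediated decay, had 3 sites in the first and 5 in the last kilobase of 11 in all. Its first-kilobase scores were 113 at 284 nt, 0.597 at 300 nt and 14.4 at 466 nt. The 113 was listed only in the longer part of the list and the 0.597, 16 nt away, only in the shorter part. MINPP1, an inositol phosphate phosphatase gene, had 3 and 5, RPTOR, the gene of the mTORC1 subunit raptor, 2 and 6, and RBBP6, a ubiquitin ligase gene, 3 and 4. The first-kilobase scores of MINPP1 (1.85, 1.91 and 2.64) and RPTOR (1.47 and 1.66) were all low, below the median of 7.56 over the 981 sites.

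The authors' score is positive, and its scale is unknown here. Over the first-kilobase sites its median was 7.56 and its quartiles 3.63 and 16.6, beside 8.41 (3.68 and 19.9) over all assigned sites of genes of this span, 10.1 in the second kilobase and 9.48 in the last. Of first-kilobase sites, 18 (1.83%, 95% interval 1.09 to 2.88) scored 100 or more, beside 2.78% of all sites of these genes and 3.53% of last-kilobase sites (interval 2.96 to 4.16). The lower quartile differed little between these groups and the upper one more.

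**Figure D3:**
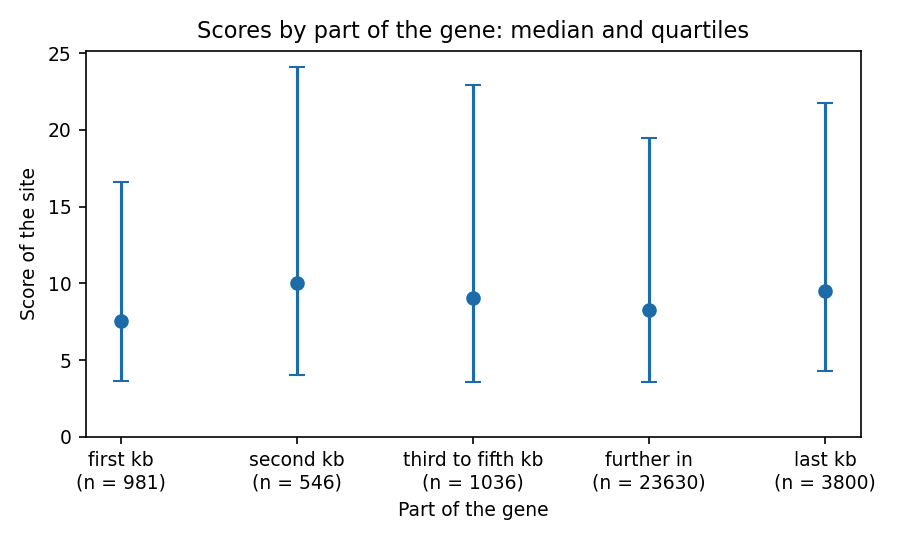
Median score (point) and quartiles (bars) of the sites in 5 parts of genes spanning 10 kb or more, with the number of sites under each. The first kilobase had the lowest median, 7.56, and the lowest upper quartile, 16.6.

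Scores were lower in the outer part of the window. The median was 6.88 in the first 500 nt and 9.0 from 500 nt to the end of the window, and over the first 50 nt, with 42 sites, it was 3.94. Scores of 50 or more were found at 23 sites (4.20%) in the first 500 nt and at 36 (8.29%) in the next 500 nt. In 505 genes with sites both inside and outside the first kilobase, the median score percentile was lower inside in 301 and higher in 204, with a median difference of −8.79 percentile points. The gene's highest score lay inside in 116 (23%), where drawing any of its sites alike would give 29.1%. In the 75 of these genes with 3 or more first-kilobase sites the 2 directions were even, at 38 higher and 37 lower.

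The 10 highest first-kilobase scores lay in 8 genes, of which 7 are described. Below SLC1A5 came HCFC1, the transcriptional coregulator host cell factor, with 166 at 274 nt (X chromosome, 153971544, minus strand). HCFC1 had 5 sites, scoring 166, 26, 1.63, 119 and 133, and 3 of them were thus above 100 by the higher score. On the other row the first had 103, the second 2.53 and the fourth 18.6, which leaves 2 above 100 by the lower score. The median over its 16 other sites was 17.8. ZCCHC14, a zinc knuckle gene, had 1 first-kilobase site, at 165 (chromosome 16, 87492138, minus strand), with 96.2 on its other row.

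The adaptor gene CRKL had a site at 140, the amino acid transporter gene SLC7A5 at 125, EIF4A3, the helicase of the exon junction complex, at 125 and the proteasome subunit gene PSMB1 at 125. For CRKL, EIF4A3 and PSMB1 the score on the other row was 16.7, 8.54 and 11.8, so their rank depends on the row used.

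Of the 981 positions, 156 (15.9%) were on 2 rows. The median of their higher score was 18.9 and of their lower score 6.29, the higher one was more than 10 times the lower in 20, and the 2 were equal in 2. Chromosomes recur in the row order, so the rows of each strand fall into successive runs of chromosomes. The first 2 runs of each strand were pooled here as a shorter part of 8935 rows. All later runs were pooled as a longer part of 34243, with 0 positions repeated within a part. This grouping was chosen here and is not marked in the list. Neither part is labelled with libraries or a treatment, and none is assigned to them here.

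Positions found only in the shorter part made up a larger share of sites in the first 500 nt than deeper in the window. They made up 112 of 547 sites there (20.5%, 95% interval 17.2 to 24.1) and 36 of 434 from 500 nt to the end of the window (8.29%, interval 5.88 to 11.3). In the second kilobase the share was 11.5%, further in 8.88% and in the last kilobase 7.13%. Per 100 nt it was 16.1% to 25% in the 5 intervals below 500 nt and 6.49% to 9.64% in the 5 above. In the second kilobase it was lowest at 1700 to 1799 nt, with 1 of 44 sites, and highest with 26.4% at 1600 to 1699 nt, where 14 of 53 sites were of this kind. Their median distance from the 5′ end was 298 nt, against 466 nt for positions only in the longer part and 492 nt for those in both.

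These 148 positions were spread over 143 genes and had a median score of 4.38, beside 7.42 for first-kilobase positions only in the longer part. EGLN3, FAHD1, KLHL42, TMX1 and USP38 had 2 each and no gene had more. The highest scores among them were 50.6 in SLC1A5, 43.4 in the RAB GTPase-activating gene TBC1D10B, 27.3 in MAF and 23.2 in PURA. The first 500 nt thus had both lower scores and a larger share of such positions, and the part of either in the other was not tested.

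**Figure D4:**
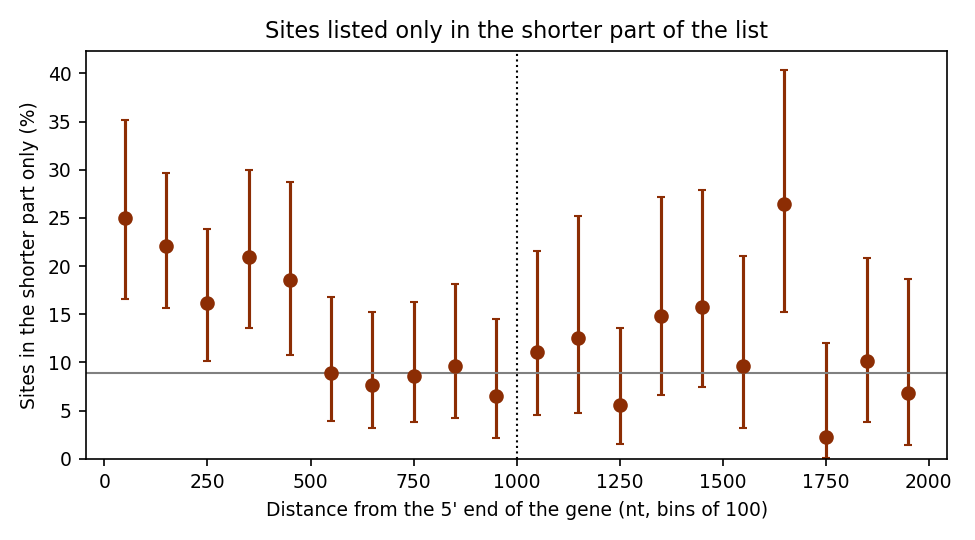
Share of sites listed only in the shorter part of the list, in percent (vertical axis), per 100 nt of distance from the 5′ end (horizontal axis). Bars are exact binomial 95% intervals for counting error, the grey line is the share over all sites of these genes, 8.95%, and the dotted line marks 1000 nt. The 5 intervals below 500 nt lie between 16.1% and 25%.

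Gene lists differed in the share of their sites that lay in the first kilobase, which was 3.27% over all genes. Among genes of the m6A machinery it was 11.2%, 13 of 116 sites, in 6 of 16 genes with a site. ALKBH5, an m6A demethylase, held 6 of these on chromosome 17 from 18184219 to 18184728 (plus strand), with scores of 5.18, 7.70, 6.46, 34.5, 0.282 and 75.3 from 391 to 900 nt. On the other row the 34.5 had 21.9 and the 75.3 had 12.7. METTL3, the catalytic subunit of the methyltransferase, had 2, at 163 nt with a score of 11.7 and at 202 nt with 25.1. The reader gene IGF2BP3 also had 2, scoring 0.449 and 3.64, and YTHDC1, YTHDF1 and ZC3H13 had 1 each. Without ALKBH5 the share was 6.67%, 7 of 105.

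Kelch-like adaptors of CUL3 ubiquitin ligases had 8.33% (14 of 168 sites), with KLHL42 at 6, KLHL21 at 4 and KLHL11 at 2, and without KLHL42 5.06% (8 of 158). SLC solute carriers had 7.78% (41 of 527 sites, in 21 of 120 genes), and without SLC1A5 6.37%. After SLC1A5 they were led by SLC39A9, a zinc transporter gene, with 8.89, 42.8, 79.97, 48.3 and 58.7 from 511 to 917 nt, and by SLC33A1, an acetyl-CoA transporter gene, with 4 sites of up to 70.2. All 5 sites of SLC39A9 scored above the median of 7.56 by the higher score, and that at 691 nt had 0.468 on its other row. TRIM and RNF ubiquitin ligases had 7.42% (21 of 283), and without RNF168 5.62%. RNF168, which ubiquitinates histone H2A at DNA breaks, had 6 of these, scoring 2.92, 44.6, 30.9, 70.4, 4.45 and 2.01 from 254 to 819 nt, and RNF217 had 4. The 70.4 of RNF168 had 7.67 on its other row.

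In other lists with a raised share, 1 gene held much of it. Polycomb, ASXL and BCOR genes had 7.14% with FBRS and 1.90% without it. DNA repair scaffolds and kinases had 5.73% with RNF168, which also stands in the list of TRIM and RNF ubiquitin ligases, and 2.13% without it. Among mTOR, AMPK and autophagy kinases the share was 6.98%, 6 of 86 sites, 3 of them in STK11, the kinase LKB1, with scores of 30.4, 64.1 and 4.48, and without it the share was 3.70%. The 30.4 had 8.12 on its other row. FAT, Dachsous, CELSR and protocadherin genes had 5.98% (11 of 184), all in the protocadherins PCDH7, PCDH9, PCDH10 and PCDH18, and without PCDH7 3.75%. PCDH9, which spans 928 kb, had scores of up to 49.3, and PCDH10 up to 91.4.

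ZNF zinc finger genes had few first-kilobase sites. With 1806 sites in 267 genes of this span they held 8 in the first kilobase (0.443%), in 5 genes, and 4 of the 8 were in ZNF622. The ZNF622 sites scored 8.23, 4.61, 11.8 and 0.758 from 211 to 505 nt, and the single sites of ZNF263, ZNF503 and ZNF75D scored 19.2, 24.6 and 5.36. Histone lysine methyltransferase and demethylase genes held 2 of 436 (0.459%), in the demethylase genes KDM1A, scoring 26.6 at 423 nt, and KDM5A, scoring 9.23 at 63 nt. ZBTB genes held 2 of 212, both in ZBTB41. FOX transcription factors had 0 of 96 sites, which allows a share of up to 3.13%, and argonautes, TNRC6 and DICER1 0 of 104, which allows up to 2.88%. These limits take 3 sites as the most that a count of 0 allows, and both lie close to the 3.27% over all genes. A 2-sided exact interval, as used elsewhere, would reach higher, so neither list is placed below that share.

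**Figure D5:**
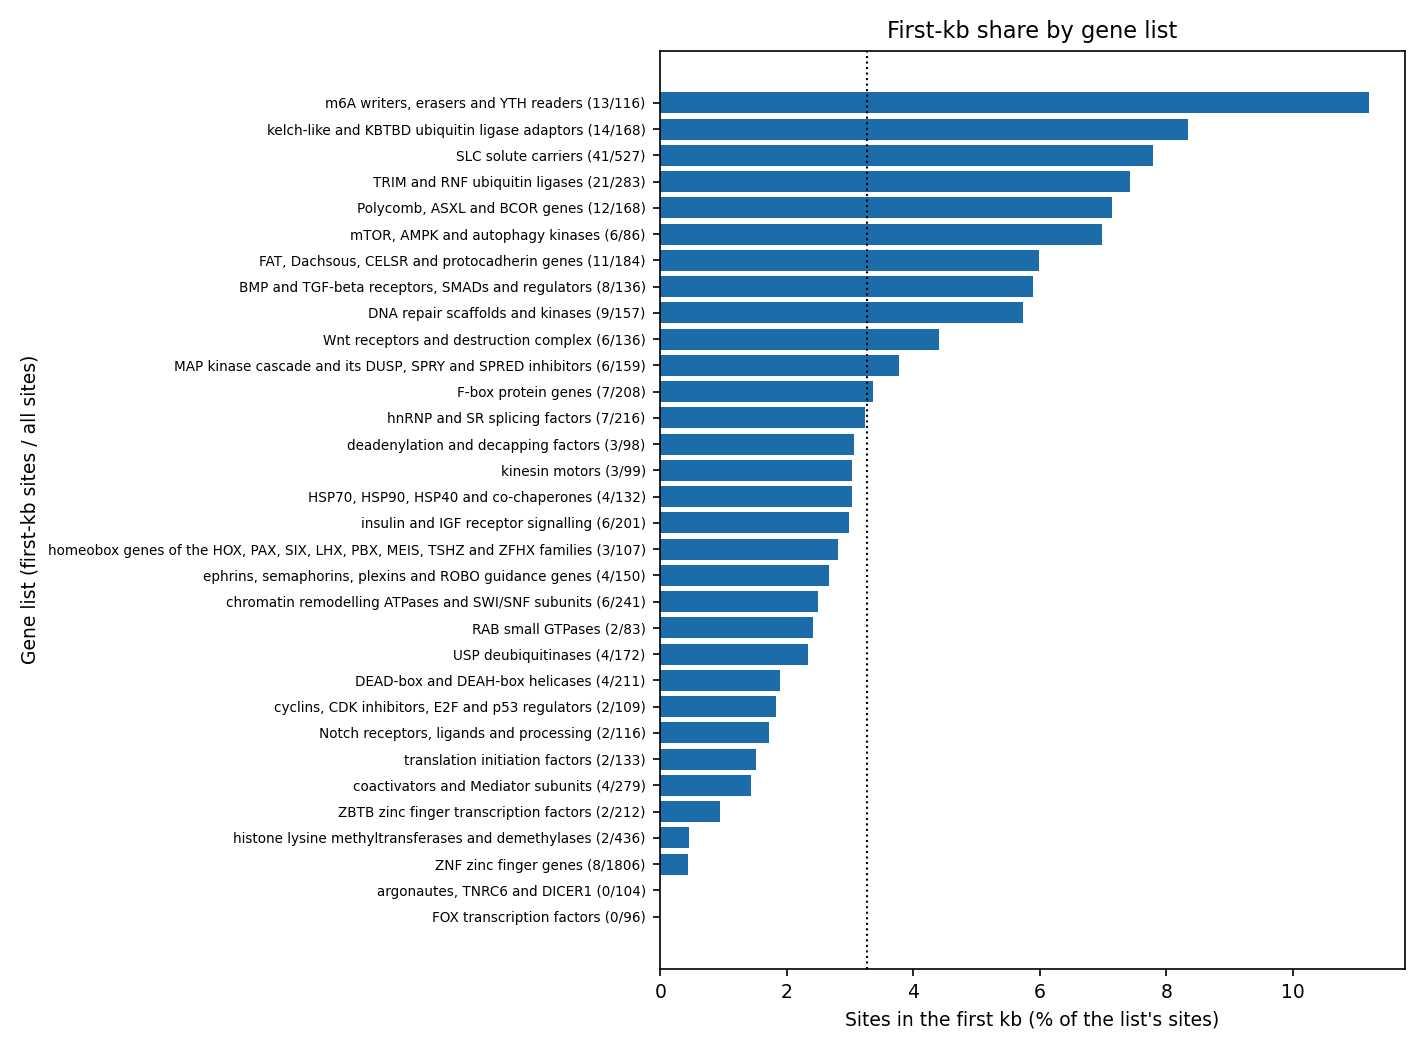
Share of each gene list's sites that lay in the first kilobase, in percent (bars, horizontal axis), for lists with 80 or more sites in genes spanning 10 kb or more. Labels give first-kilobase sites over all sites, and the dotted line is the share over all genes, 3.27%. The m6A machinery had 11.2% and ZNF genes 0.443%.

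Lists of signalling and chromatin genes ranged from above to below the share over all genes. BMP and TGF-beta genes had 5.88% (8 of 136 sites), and 4.10% without the receptor gene BMPR2, which had 3 sites of 44.5, 22.5 and 14.2, the first of which had 1.31 on its other row. TGFB1 had 2. Wnt genes had 4.41% (6 of 136), with 2 sites in each of the kinase genes CSNK1A1 and GSK3B and 1 in CTNNB1, the gene of beta-catenin, at 125 nt with a score of 13.3. Without CSNK1A1 the Wnt share was 3.13%. The MAP kinase list had 3.77% (6 of 159), with RASA1 and MAP3K21 at 2 each, and 2.72% without MAP3K21. Insulin and IGF signalling had 2.99% (6 of 201), with the receptor substrate gene IRS4 at 3 sites of up to 29.4. Chromatin remodellers had 2.49% (6 of 241), 3 of them in ARID1A, and coactivators 1.43% (4 of 279), 2 of them in EP300.

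Lists of RNA metabolism other than the m6A machinery were near or below the share over all genes. Deadenylation and decapping factors had 3.06% (3 of 98 sites), 2 in the deadenylase gene PAN2 and 1 in CNOT6. The hnRNP and SR list had 3.24% (7 of 216), led by RBM14 with 2, and DEAD-box and DEAH-box helicases 1.90% (4 of 211), led by DDX17 with 2. Translation initiation factors had 2 of 133, in EIF4A3 at 125 and EIF4EBP2 at 37.5. Of the cytosolic ribosomal protein genes only 15 spanned 10 kb or more, and RPL28 held the list's 1 first-kilobase site.

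The remaining lists in the plot of shares by gene list lay between 1.72% and 3.37%, on 2 to 7 first-kilobase sites each. F-box protein genes had 7 of 208 sites, 4 of them those of SKP2, and USP deubiquitinase genes 4 of 172, 3 of them in USP38. Notch genes had 2 of 116, both in the coactivator gene MAML1, and kinesin genes 3 of 99, of which KIF5B, the conventional kinesin heavy chain gene, held 2.

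The 5′ ends were set beside annotated starts. Both came from RefSeq for GRCh38.p14, so their agreement does not tell which starts HEK293T cells use. For 777 of the 981 sites the gene was in the promoter table, and 777 of these were on the strand that the table gives. The 5′ end used here was an annotated start for 746, another start lay between it and the site for 82, and every listed start was downstream of the site for 12. Of 24610 sites outside the first kilobase in genes of the table, 276 (1.12%) lay within 1000 nt downstream of an inner start, in 144 genes, and these had a median score of 10.0. AMD1, the gene of S-adenosylmethionine decarboxylase, had 6 of them with a median of 90.7, and was named after its values were seen.

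At the limit of the window, the last sites inside it lay in EXO1 at 983 nt, scoring 95.9, PCDH10 at 987 nt with 91.4, SKI at 989 nt with 0.670 and FGD1 at 995 nt with 6.0. The first outside it lay in HP1BP3 at 1003 nt with 22, EGLN1 at 1006 nt with 12.8, GSE1 at 1007 nt with 0.814 and ORMDL1 at 1009 nt with 3.61. Of genes just short of the span limit, TGOLN2 (9.96 kb) had 4 such sites and RPL37 (also 9.96 kb) had 1, and just above it FAM3A (10.1 kb) had 2.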

How the data were processed

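iCLIP2 of 8 libraries is summarised in 1 deposited list without a header, whose rows carry the site's position, strand and score. How the authors scaled or normalized this score is not stated, so it only ranks and describes sites within the list. Per the submitters' processing notes, bedtools 2.27.1, UMI-tools 1.0.0, STAR 2.7.3a, FastQC 0.11.8 and GRCh38.p12 were used, in no stated order. For the site caller and the pooling of replicates: not given in the sources used here.

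Rows that share position and strand became 1 site with the higher score. Gene spans came from a RefSeq table of GRCh38.p14 with 19932 protein-coding genes, readthrough genes left out. A gene's strand was that of most sites lying in it alone. In a gene with 1 site the strand was thus that of the site itself. For 17 first-kilobase sites in such genes the promoter table held no strand to compare. Left out were 1744 positions in overlapping genes, 112 outside protein-coding genes, 12 on the other strand and 16 with tied strands. Distances count from 0 at the gene's first nucleotide and positions from 1. Sequences came from the RefSeq promoter table, 250 nt before to 50 nt after starts, which held 497 of the 611 genes. Motifs were read on the site's strand. Intervals are exact binomial, except the limits for gene lists with 0 sites, which take 3 sites as the most that a count of 0 allows. No test was made, since no value belongs to a library.

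Members and lists were chosen with earlier results of these data known. Named were the 10 genes with the most first-kilobase sites, those of the 10 highest scores, up to 10 with 3 or more sites all in the window, up to 4 per list, those of the 8 sites nearest to a 5′ end, and those with most sites above 100 kb or at both ends, though not all are reported here. The assignment was run on simulated sites, each in a different gene. A gene's strand then came from its simulated site, so this checked the calculation of gene and distance only, not strands or 5′ ends. Computation used Python 3.11.15 and pandas 2.3.3.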

Additional observations from a re-analysis of the deposited data

How the results depend on the processing

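The window, the gene span, the number of sites per gene, the score and the part of the list moved the results. With windows of 500 and 2000 nt the count of 981 sites became 547 and 1527, the share of sites 1.82% and 5.09%, and the ratio of sites in the last to sites in the first window, 3.87 with 1000 nt, 3.30 and 4.74. With genes of 5 kb or more the share was 3.85%, with 20 kb or more 2.82%, and with genes of 3 or more sites 3.06%. At or above the median score there were 437 sites in 312 genes, 2.97% of sites, with a ratio of 4.61. The longer part of the list alone gave 3.05% and a ratio of 4.24, and the shorter part 304 sites in 258 genes, 4.38% and a ratio of 2.63. These settings keep fewer or more sites by construction, and the cause of the difference between the parts was not tested. The other alternatives (merging sites within 50 nt, strands from the promoter table, overlapping genes resolved by strand) left the count, the genes, the share and the ratio within 1.5 times or the counting interval. Taking the lower of 2 scores changes no position, so it could not move these results. The share of sites within the first 500 nt was 49.4% to 63.2% over 10 alternatives. The median score was 6.02 to 18.5 over 12 alternatives, and 6.47 with the lower of 2 scores. The 18.5 came from keeping only sites at or above the median score, which raises it by construction. The next highest was 8.20, with the window of 2000 nt. No paired analysis was possible because the list has no value per library. The depth behind a site is unknown, and gene expression was not used here.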

Other observations

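In 3 head-to-head pairs of genes, whose 5′ ends lie within 1000 nt of each other on opposite strands, both genes had a first-kilobase site. How many head-to-head pairs there were in all is not given here, so the 3 cannot be read as many or few. The DNA crosslink repair gene DCLRE1A and NHLRC2, 266 nt apart, had sites 16 nt and 36 nt inside, with scores of 9.88 and 22. KLHL28 and TOGARAM1 (242 nt apart) had sites at 96 and 897 nt, and the zinc transporter gene SLC39A6 and the Elongator gene ELP2 (558 nt apart) at 70 and 102 nt. These pairs were named after their values were seen.

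The 300 nt around the start had a median GC content of 65.7% in 477 genes with a first-kilobase site, 66.3% in 3906 with sites elsewhere only and 61.3% in 5330 genes spanning 10 kb or more without a site. TATAAA on either strand was in 25 (5.24%), 164 (4.20%) and 514 (9.64%) of these. By chromosome, the share of sites in the first kilobase ranged from 1.34% on chromosome 20 (12 of 895 sites) to 4.82% on chromosome 14 (49 of 1016).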
